A study of Mus musculus and Homo sapiens with 20 samples.

Results

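HepG2, a human liver cancer cell line that is grown in culture, was profiled by ATAC-seq on day 12 in 8 of the 20 libraries of the series. The 4 libraries labelled B2_minus come from cells put through vitamin B2 deficiency, and the 4 labelled control are those they are set against. The labels name no genotype, transgene or other agent for these cells and give no medium composition. The 8 libraries were chosen by sample title, and the remaining libraries of the series, from mouse hepatocytes, were not used here. Libraries of each group are numbered as replicates 1 to 4, with no statement that they are separate cultures. The p-values thus reflect only how far these libraries differ, which may be technical.

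The groups follow the sample titles throughout. In 8 of 8 libraries the name of the deposited file carries the opposite condition. No gene annotation was used that could settle which is right, so every "higher" and "lower" is a statement about the library labelled B2_minus relative to the library labelled control, and all directions turn round if the file names are right.

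Vitamin B2, or riboflavin, is the precursor of the flavin cofactors FMN and FAD. Enzymes of fatty acid oxidation, the respiratory chain and redox defence carry these cofactors, and so does the histone demethylase LSD1, which acts on chromatin. The title of the series names AhR, a ligand-activated transcription factor that binds DNA together with ARNT and is best known in liver for inducing cytochrome P450 enzymes. In ATAC-seq the Tn5 transposase cuts DNA that nucleosomes and other proteins leave exposed, so a peak of cuts marks accessible chromatin such as an active promoter or enhancer. No human gene annotation was used here, so regions are named by hg38 position, without a nearby gene, and the liver identity of the cells was not checked against marker genes.

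The deposited lists held 253358, 263802, 285530 and 272368 peaks in the libraries labelled B2_minus, against 280528, 278096, 285202 and 253125 in the libraries labelled control. These peaks carried 6184400 to 7856370 tags in B2_minus libraries and 5705857 to 7188506 in control libraries, a tag being a counted read. Neither total differed between the groups by more than its spread: peaks averaged 268764 ± 13614 in B2_minus and 274238 ± 14381 in control (SD, n = 4 each; exact two-sided permutation test, p = 0.629), and tags gave p = 0.229 in the same exact test. Tags per peak averaged 25.7 ± 2.11 in B2_minus and 23.01 ± 2.39 in control (exact permutation p = 0.143). A peak was listed with at least 6 to 8 tags, depending on the library, and with at most 220 to 257.

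The libraries resembled their own group more than the other. Pearson's r of log2(scaled tags + 1) was 0.952 to 0.956 between B2_minus libraries, 0.942 to 0.949 between control libraries and 0.921 to 0.932 across the groups, over regions that share a library's depth and are not independent. The first principal component held 31.5% of the variance and separated the groups. Control replicate 3 stood apart on the second component, which held 13.3%, and was also the library with the fewest tags per peak (20.0).

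**Figure D1:**
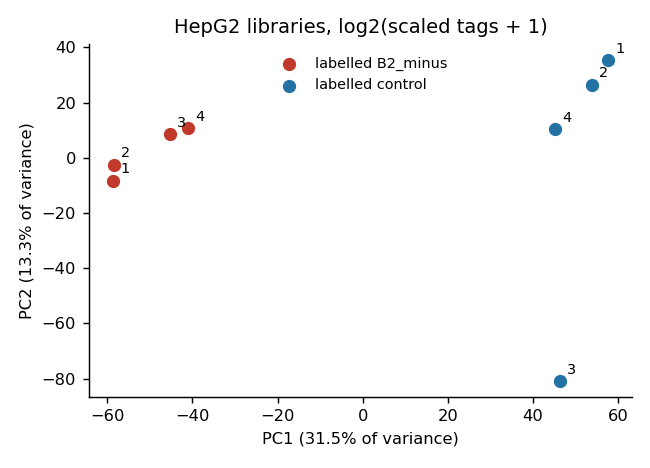
Position of each HepG2 library on the first and second principal components of log2(scaled tags + 1) over 141079 regions, with replicate numbers beside the points. The B2_minus libraries lie between -58.6 and -41.0 on the first axis and the control libraries between 45.2 and 57.6, with control replicate 3 at -80.8 on the second.

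Many sites differed in accessibility, each by a modest amount. Peaks that overlapped between libraries were merged into 500015 regions, and the 141079 that carried a peak in each of the 8 libraries were tested. With edgeR's quasi-likelihood test and Benjamini-Hochberg adjustment, 7761 regions were higher in B2_minus (5.5% of those tested) and 5578 were lower (3.95%), so 13339 (9.45%) were called at an adjusted p under 0.05. The median log2 fold change was 0.54 among the regions called higher and -0.61 among those called lower, and from the 10th to the 90th percentile these sets ran between 0.29 and 0.89 and between -0.85 and -0.33. Over all regions tested the median was -0.01. Only 412 of the higher regions (5.31%) and 180 of the lower ones (3.23%) differed by a log2 fold change of 1 or more.

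The groups did not overlap in scaled tags, the tag count put on a common library size, in 17949 of the tested regions (12.7%). In 9911 of these every B2_minus library was above every control library (7.03%), and in 8038 every B2_minus library was below (5.7%). Among called regions the groups were separate in 6063 of those higher (78.1%) and 4033 of those lower (72.3%). Regions called higher had a median of 42.8 scaled tags in B2_minus and 29.1 in control, and regions called lower had 20.1 in B2_minus and 31.4 in control. Without control replicate 3, 6921 regions were called higher and 5107 lower.

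The counts depended on the test and its model of the spread between replicates. Replicates agreed more closely than counting noise alone would give (chi-square per degree of freedom 0.574 to 0.639 between replicates), and the test used lets the spread fall below that of Poisson counts. With the spread held at the Poisson level, 2807 regions were called higher and 1501 lower. DESeq2, which differs from edgeR in its model of the spread, its size factors and its filter on low counts, called 1052 higher and 405 lower. It gave no adjusted p to 32823 regions, among them 546 of those called higher and 1018 of those called lower with edgeR.

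The largest rises were about 3-fold. Among called regions with separate groups and at least 20 scaled tags in the higher group, the top 10 rises had log2 fold changes of 1.51 to 1.82 and the top 10 falls of -1.63 to -1.37. The region that rose most, chr2:20430954-20431266, had 31.7, 46.2, 47.2 and 39.3 scaled tags in B2_minus, against 11.4, 8.32, 14.1 and 13.2 in control. The lowest B2_minus library was above the highest control library, and the ratio of the means was 3.49 (log2 fold change 1.82, SE 0.182, edgeR adjusted p = 3.07e-16).

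Other strong rises lay on the same chromosome and elsewhere. At chr2:177338088-177338383 the B2_minus libraries had 33.8, 36.9, 34.3 and 31.0 scaled tags, against 10.4, 10.2, 8.24 and 12.1 in control. At chr8:79795069-79795355 the values were 30.6, 35.9, 28.7 and 39.3 in B2_minus, against 9.33, 9.24, 10.6 and 12.1 in control. Both sites were 3-fold or more higher in B2_minus, with ratios of 3.33 and 3.26. At chr2:10297941-10298368 the B2_minus libraries had 57.0, 49.3, 49.1 and 47.7 scaled tags, against 10.4, 19.4, 21.2 and 16.5 in control. The groups were far apart, and the control libraries differed among themselves more than the B2_minus libraries did. The others were chr1:172588714-172588975, chr3:138891175-138891545, chr18:3209843-3210114, chr19:45722003-45722299 and chr20:53751792-53752149, with log2 fold changes of 1.64, 1.59, 1.54, 1.52 and 1.51.

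The second largest rise needs a separate account, because the merged region holds peaks at different places. At chr22:20551491-20552679, the called region with the lowest p of all (edgeR adjusted p = 6.09e-23, log2 fold change 1.77), scaled tags were 66.5, 54.4, 64.8 and 52.7 in B2_minus, against 8.29, 28.7, 20.0 and 11.0 in control. The region is 1189 bp wide. Its strong peak, at chr22:20552466-20552679, was listed in all 4 B2_minus libraries with 63, 53, 70 and 63 tags and in 0 control libraries. A neighbouring peak at chr22:20552092-20552472 was listed in B2_minus replicates 2 and 4 with 30 and 28 tags, and in control replicates 2, 3 and 4 with 31, 17 and 10. When peaks had to overlap by 100 bp to be merged, the one piece that had a peak in all 8 libraries, chr22:20551491-20552104, gave a log2 fold change of 0.40 and an edgeR adjusted p of 0.294. The call for the whole region therefore compares different peaks in the B2_minus and control libraries. With this stricter merging only 36 of the 39 named regions had a value. The rise chr2:10297941-10298368 and the falls chr12:31278845-31279267 and chr6:16519939-16520322 had none. Their calls could thus not be checked in this way.

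Falls reached the lowest counts that the lists contain. At chr12:31278845-31279267 the B2_minus libraries had 8.45, 9.24, 10.2 and 7.53 scaled tags, against 28.0, 27.7, 24.7 and 29.7 in control (log2 fold change -1.63, SE 0.216, edgeR adjusted p = 8.2e-10). At chr21:33059578-33059871 they had 7.39, 7.18, 7.41 and 7.53 in B2_minus, against 20.7, 22.2, 21.2 and 20.9 in control. The replicates of each group were nearly equal there, and the B2_minus counts before scaling were 7, 7, 8 and 9, against a lowest listed count of 7, 7, 7 and 8 in those libraries. In 4 of the 10 largest falls every B2_minus library was within 2 tags of its lowest listed count, and in 1 of the 10 largest rises every control library was. The fold of those regions is limited by that lowest count.

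At chr16:72884559-72884879 the B2_minus libraries had 10.6, 8.21, 6.48 and 12.6 scaled tags, against 20.7, 25.9, 30.6 and 31.9 in control. At chr8:67007551-67007884 the values were 7.39, 16.4, 9.26 and 14.2 in B2_minus, against 34.2, 33.3, 30.6 and 26.4 in control. The remaining falls, in order, were chr4:109251426-109251779, chr2:174544115-174544521, chr17:11619234-11619483, chr4:16449974-16450357, chr6:16519939-16520322 and chr22:39106355-39106626, with log2 fold changes of -1.47, -1.46, -1.38, -1.38, -1.38 and -1.37. At chr2:174544115-174544521 the control libraries spread from 13.5 to 30.8 scaled tags, against 7.18 to 8.37 in B2_minus. DESeq2 gave no adjusted p to 3 of the 10 falls, chr21:33059578-33059871, chr4:109251426-109251779 and chr4:16449974-16450357, with log2 fold changes of -1.53, -1.47 and -1.40.

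**Figure D2:**
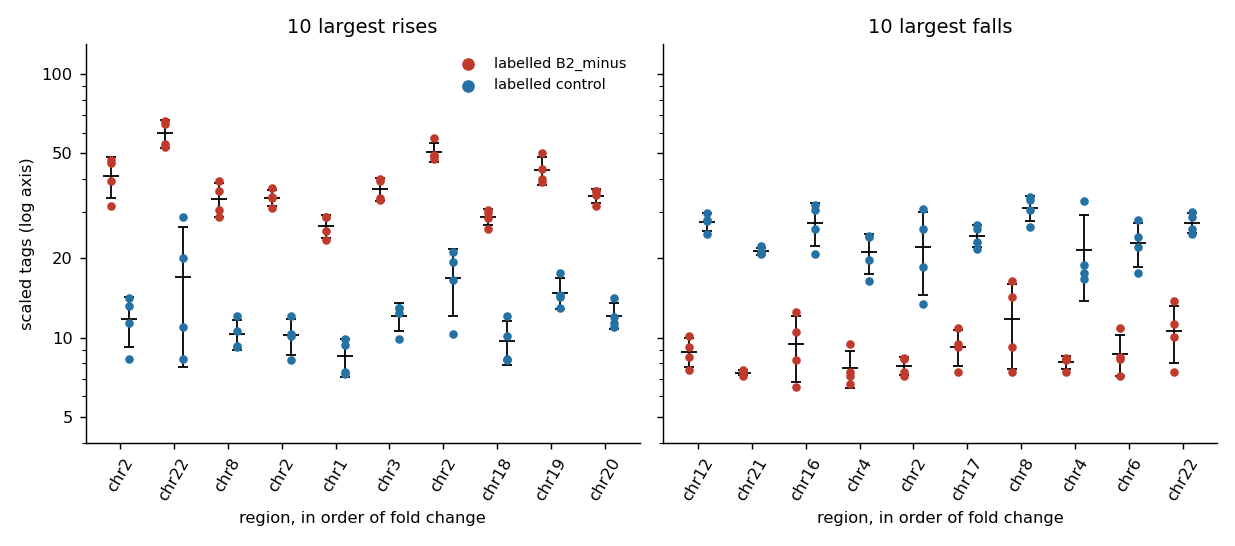
Scaled tags per library, on a log axis, at the 10 called regions with the largest rise (left) and the 10 with the largest fall (right), in order of fold change, with points for libraries and bars for the mean and SD of 4 libraries. In each region all B2_minus libraries lie above all control libraries on the left and below them on the right. Separate groups were part of how these regions were chosen.

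The differences of lowest p lay above the median signal of tested regions, which was 25.1 scaled tags averaged over the 8 libraries. At chr14:31038737-31038978 the B2_minus libraries had 98.2, 97.5, 91.7 and 82.9 scaled tags, against 41.5, 46.2, 49.4 and 41.8 in control, a ratio of 2.07 (log2 fold change 1.04, SE 0.0899, edgeR adjusted p = 1.74e-20). At chr14:33922183-33922468 the means were 57.1 ± 3.37 in B2_minus and 21.97 ± 3.62 in control (SD, n = 4 each), a ratio of 2.60. At chr20:5654645-5654906 they were 65.0 ± 7.11 in B2_minus and 27.5 ± 2.95 in control. None of these 3 regions had overlapping groups.

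Of the regions called lower, chr14:23869075-23869351 had the lowest p, with 28.5, 24.6, 26.9 and 24.3 scaled tags in B2_minus, against 59.1, 61.9, 52.97 and 66.0 in control (log2 fold change -1.21, SE 0.119, edgeR adjusted p = 1.75e-16). At chr18:10312731-10313049 the means were 29.8 ± 1.97 in B2_minus and 65.0 ± 6.13 in control. At chr10:103716255-103716551 they were 37.5 ± 1.03 in B2_minus and 72.1 ± 4.81 in control. These regions had 0.434 to 0.520 of the control level in B2_minus. The next were chr6:40896690-40897026 and chr2:111987396-111987668, with log2 fold changes of -0.90 and -0.80.

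The strongest of the called peaks moved little. The 5 called regions of highest signal in each direction averaged more than 120 scaled tags in both groups and differed by log2 fold changes of 0.18 to 0.21 among those higher and -0.22 to -0.19 among those lower. The strongest of them, chr14:34035660-34035957, had 174, 165, 152 and 140 scaled tags in B2_minus, against 145, 126, 138 and 141 in control, so that the groups overlapped (edgeR adjusted p = 0.0286). At chr20:46607299-46607637 the values were 137, 140, 120 and 127 in B2_minus, against 152, 146, 152 and 161 in control. Here the groups were separate (edgeR adjusted p = 0.00893). None of these 10 calls held with DESeq2 or with the spread held at the Poisson level.

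One stretch of chromosome 20 held more called regions than any other 100 kb window. Between 57500001 and 57600000 there were 48 tested regions, of which 25 were called higher in B2_minus and 0 lower, and 46 had a log2 fold change above 0. The scaled tags summed over the 48 regions were 2315, 2294, 2195 and 2180 in B2_minus, against 1657, 1654, 1693 and 1710 in control. The mean of the sums was 2246 ± 68.4 in B2_minus and 1678 ± 27.6 in control (SD, n = 4 each). The window was chosen for its number of calls, so these values are a description and carry no test.

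Within the window the size of the difference varied between neighbouring regions. The called regions lay between 57526900 and 57593707 and had log2 fold changes of 0.24 to 1.32, with a median of 0.79. At chr20:57546164-57546825 the B2_minus libraries had 32.7, 36.9, 25.9 and 26.8 scaled tags, against 8.29, 11.1, 15.3 and 14.3 in control. About a kilobase away, at chr20:57547320-57547575, they had 101, 116, 107 and 101 in B2_minus, against 53.9, 53.6, 61.2 and 62.7 in control (log2 fold change 0.88, SE 0.0812, edgeR adjusted p = 2.92e-18). The groups did not overlap at either region, and the larger ratio was at the weaker one. That weaker region is 662 bp wide and held up to 2 peaks in a library. In such merged regions the highest count can come from different peaks in different libraries.

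Further along, chr20:57567485-57567989 averaged 68.2 ± 3.75 scaled tags in B2_minus and 31.8 ± 3.14 in control, and chr20:57582843-57583214 averaged 97.5 ± 2.08 in B2_minus and 65.1 ± 3.64 in control. The strongest peak of the stretch did not move with them. At chr20:57560850-57561149 the values were 156, 142, 145 and 141 scaled tags in B2_minus, against 151, 137, 155 and 141 in control (log2 fold change 0.00, SE 0.0616, edgeR adjusted p = 0.999).

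The neighbouring windows showed no such run. The window from 57400001 to 57500000 held 1 region called higher and 2 called lower of 21, with a median log2 fold change of -0.07, and the window from 57600001 to 57700000 held 0 calls of 5. With a library left out the number of regions called higher in the stretch was 22 to 26. With the spread held at the Poisson level 18 were called and with DESeq2 10.

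**Figure D3:**
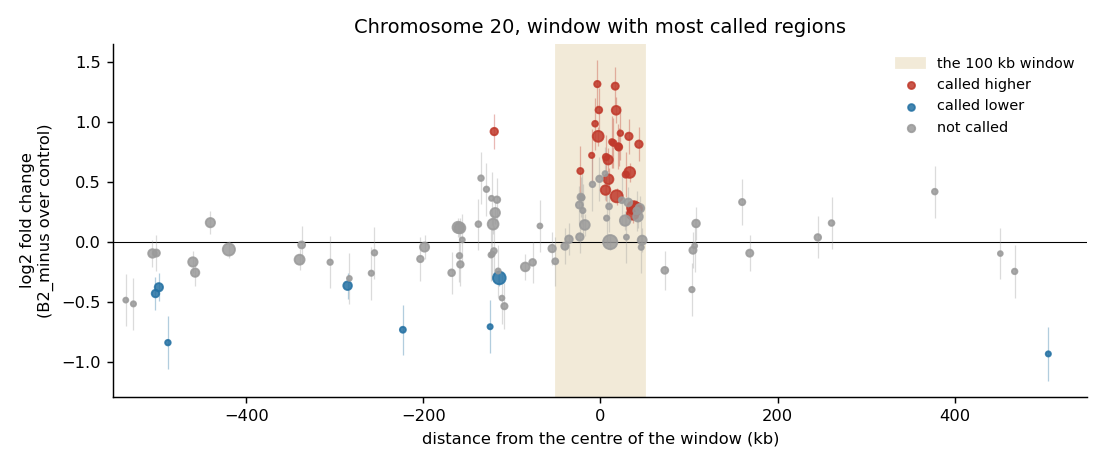
Log2 fold change (B2_minus over control) of the tested regions within 500 kb of the chromosome 20 window with most calls, by distance from its centre, with bars for the SE and point area growing with mean scaled tags. The 25 regions called higher lie in the middle and right of the shaded 100 kb among regions that were not called, while the strongest peak inside it lies at 0.00 and the windows on both sides hold few calls.

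Other windows with many calls were smaller in number and in effect. On chromosome 6, between 44000001 and 44100000, 12 of 50 regions were called higher, and the summed scaled tags were 1989 ± 107 in B2_minus and 1690 ± 52.4 in control (SD, n = 4 each). At chr6:44034190-44034870 in that window the B2_minus libraries had 38.0, 34.9, 33.4 and 34.3 scaled tags, against 11.4, 19.4, 16.5 and 17.6 in control. On chromosome 22, between 39200001 and 39300000, 10 of 34 regions were called higher, with sums of 1279 ± 27.6 in B2_minus and 1095 ± 17.3 in control. DESeq2 called 5 and 2 regions in these windows.

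Windows with many falls were sparser. The most called lower was 7 of 37, on chromosome 20 between 62400001 and 62500000, where 1 region was called higher and the summed tags were 1227 ± 26.5 in B2_minus and 1353 ± 34.3 in control. On chromosome 17, between 72600001 and 72700000, 6 of 18 were called lower, and on chromosome 15, between 80400001 and 80500000, 5 of 11. With DESeq2 these windows held 2, 0 and 0 regions called lower. With 1 library left out they held 3 to 7, 4 to 6 and 1 to 4. Over the genome, 110 windows held 5 or more regions called higher and 11 held 5 or more called lower. Of 21107 windows with a tested region, 10119 had at least 5 tested regions and so could reach that number.

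Called regions also stood next to each other at closer range. The longest run of neighbouring tested regions that were all called higher spanned 8 regions and 10589 bp, at chr20:57562358-57572946 inside the same stretch. The summed scaled tags of this run were 365, 344, 357 and 354 in B2_minus, against 194, 203, 218 and 230 in control. Its widest region, of 2174 bp, held up to 6 peaks in a library. The next run, of 7 regions over 6809 bp at chr7:101133294-101140102, had 272, 306, 313 and 285 in B2_minus, against 190, 167, 194 and 189 in control. All B2_minus sums were above all control sums in both runs, which were picked for being called. In all, 134 runs of at least 3 regions were called higher and 38 were called lower, and the longest run called lower had 4. Most calls stood alone, 5929 of those higher and 4730 of those lower.

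Another region called the same way lay within 50 kb of 14 of 19 named higher regions and 12 of 20 named lower ones. A region called the opposite way lay as near to 8 and 7 of them. How many would have such a neighbour from the overall shares alone was not computed, so these counts show no excess. The pooled counts that follow take a region again where it lies near several named regions. Within 50 kb of the 19 named regions that were higher, 67 of 411 other tested regions were called higher (16.3%) and 10 lower (2.43%), 24 of those higher lying around the one in the chromosome 20 stretch. Within 50 kb of the 20 named regions that were lower, 24 of 207 were called lower (11.6%) and 15 higher (7.25%). Around chr14:23555871-23556388 alone lay 47 of those tested and 7 of those called higher. Over all tested regions the shares were the 5.5% and 3.95% given above.

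Regions near each other tended to move the same way, and the tendency faded with distance. Of 470 pairs of called regions whose centres lay within 1 kb, 92.8% had the same direction. The share was 78.0% at 2 to 5 kb, 68.5% at 10 to 20 kb and 56.4% at 100 to 200 kb. The overall split of calls into higher and lower would give 51.3%. Over all pairs of tested regions, called or not, Pearson's r of the log2 fold changes was 0.251 within 1 kb, 0.10 at 5 to 10 kb and 0.0246 at 100 to 200 kb. These values are across regions that share libraries, and close regions can also share tags from the same fragments, so they are given with no p.

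**Figure D4:**
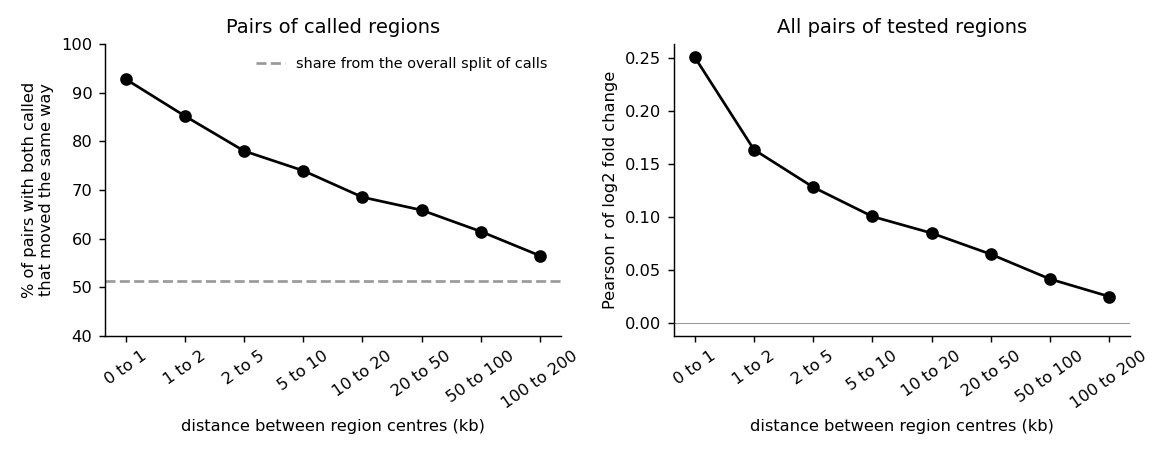
Pairs of regions by the distance between their centres in kb: the percentage of pairs with both regions called that moved the same way (left, axis from 40 to 100%, dashed line at 51.3%) and Pearson's r of the log2 fold change over all tested pairs (right). Both fall with each step in distance, and the share is 92.8% within 1 kb and 56.4% at 100 to 200 kb.

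Differences were most often called at peaks of middle strength. Of regions with a mean of 30 to 60 scaled tags, 8.93% were called higher and 5.29% lower. Below 15 tags it was 1.67% higher and 3.12% lower, and at 100 tags and over 2.61% higher and 0.846% lower. The balance thus turned with strength: regions under 15 tags were called lower more often, and regions of 15 tags and more were called higher more often. The median log2 fold change of all regions went the same way, at -0.07 under 15 tags, -0.04 at 15 to 30, 0.01 at 30 to 60, 0.04 at 60 to 100 and 0.03 at 100 and over. Only regions listed in all 8 libraries were tested, and the lowest listed count was 6 to 8 tags, depending on the library. What part this limit plays in the values under 15 tags was not tested. Counts at strong peaks may be compressed, and what part that plays at 100 tags and over was not tested either. Allowing the scaling to vary with strength left 7689 regions called higher and 5630 lower, of which 6998 and 4844 were among the calls above.

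Among called regions the median difference was smaller at stronger peaks. The fold that a call requires falls as the count rises, so this order is set by the selection of called regions and is given as a description. Regions called higher had a median log2 fold change of 0.75 under 15 tags, 0.70 at 15 to 30, 0.46 at 30 to 60, 0.31 at 60 to 100 and 0.23 at 100 and over. Regions called lower had -0.72, -0.66, -0.44, -0.31 and -0.23 in the same order. No listed peak had more than 257 tags in any library.

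**Figure D5:**
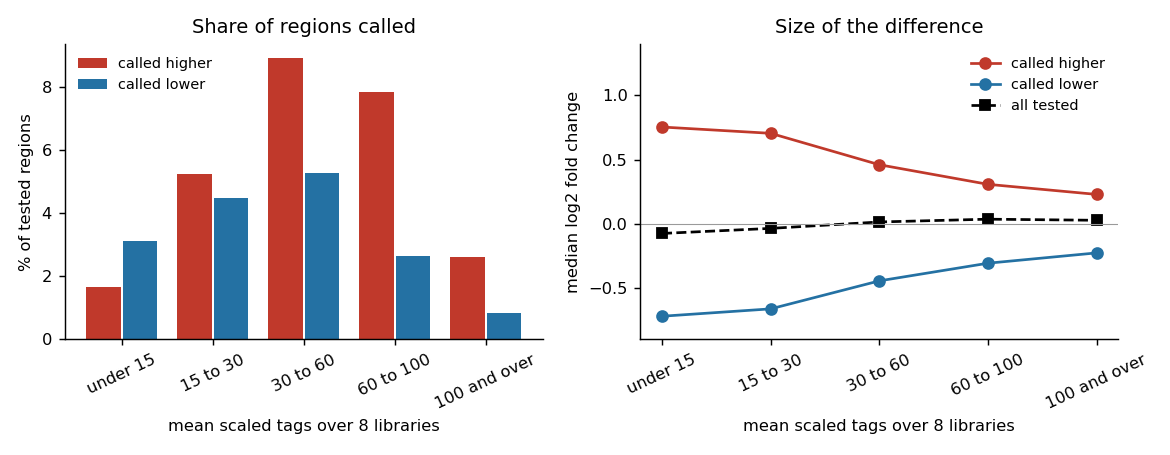
Percentage of tested regions called higher or lower (left) and median log2 fold change of called and of all tested regions (right), by the mean scaled tags of a region over the 8 libraries. Calls are most frequent at 30 to 60 tags (8.93% higher, 5.29% lower), and the median of called regions, which the selection by the test sets, lies nearer 0 at stronger peaks.

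The share of regions called varied with their width and with the number of peaks they held. Of regions up to 250 bp wide, 4.61% were higher and 2.52% lower, of those over 250 and up to 400 bp wide, 6.37% were higher and 4.66% lower, and of those over 1000 bp, 1.85% were higher and 1.51% lower. With 1 peak per library 5.90% of regions were higher and 4.21% lower, and with 3 or more 2.16% were higher and 1.28% lower.

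Regions were called in both directions on every chromosome tested. The share of a library's tags on each of 23 chromosomes, the Y chromosome left out, was compared with exact permutation tests, and 0 passed an adjusted p of 0.05. In 12 of them the groups gave the smallest p that 4 against 4 libraries allow, 0.0286, with an adjusted p of 0.0548. That smallest p is fixed by the number of libraries, so 0 passing does not show that the shares were equal. Chromosome 20 had the lowest ratio, with 4.84 ± 0.0699% of tags in B2_minus and 5.01 ± 0.0546% in control (SD, n = 4 each), a ratio of 0.966, and the highest ratio of any chromosome was 1.03. On chromosome 20, 5.25% of tested regions were called higher and 5.70% lower, so the stretch described above stood on a chromosome where falls were as common as rises. On the X chromosome 4.05% were higher and 2.01% lower, and on chromosome 19 4.00% and 2.16%. In windows of 5 Mb the median log2 fold change ran from -0.14 to 0.10 over 544 windows, and 2 of them lay beyond 0.1.

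Peaks listed in only 1 group added little. In 1022 regions all 4 B2_minus libraries and 0 control libraries had a peak, with a median of 9.5 tags, and in 868 regions 0 B2_minus and all 4 control libraries had one, with a median of 8.75. Most were thus close to the lowest count listed. The strongest were chr6:47076111-47076330, with 85, 89, 91 and 93 tags in B2_minus, and chr19:10654054-10654335, with 86, 86, 61 and 63 tags in control. Of the regions with a mean of at least 30 tags, 23 of 23 seen only in B2_minus and 12 of 12 seen only in control lay within 500 bp of a peak listed in the other group, against 43.4% and 42.6% of all such regions. The absence of such a peak from a list cannot be read as low accessibility, since the other group has a peak beside it.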

How the data were processed

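ATAC-seq libraries of HepG2 cells were analysed, 4 labelled B2_minus and 4 labelled control. The authors deposited 1 peak list per library, in build hg38, with a whole-number tag count per 200 bp peak; Bowtie2 and HOMER are named per the submitters' processing notes, with versions and settings not given in the sources used here. That the column holds counts was read from its values. The highest count of any 200 bp peak was 257 and replicates spread less than Poisson counts, so counts at strong peaks may be compressed; the cause was not tested. Intervals and p-values cover counting error and the spread between libraries only.

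Peaks on chromosome Y and unplaced sequences (0.131%) were left out. Peaks overlapping by at least 1 bp over the 8 lists were merged, and the highest count per library was its value. Regions with a peak in all 8 libraries were tested with edgeR 4.0.16 (TMM, glmQLFit with legacy = FALSE and glmQLFTest, Benjamini-Hochberg, threshold 0.05) in R 4.3.3. Scaled tags are counts divided by the effective library size and multiplied by its mean. Single values per library were compared with exact two-sided permutation tests in scipy 1.17.1, which with 4 libraries against 4 cannot go below p = 0.0286. The simulated counts on which the test was checked were Poisson, so that check does not cover the spread below Poisson seen here.

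Alternatives were DESeq2 1.42.0, limma 3.58.1 on log2(tags + 1), other scalings and filters, other merging, a replicate block and leaving out each library. Named regions were the 10 largest rises and falls among called regions with separate groups and at least 20 scaled tags in the higher group, the 5 of lowest p and the 5 of highest signal each way, and the 3 windows of 100 kb with most calls each way. Ties between windows were ordered by the share of their regions called, a step decided after the values were seen. The regions on which the text dwells beyond these were picked after their values were seen. Members, lists and the form of the edgeR test were chosen with earlier results of these data known. Planned gene lists, marker genes and motif searches were not run, because no human annotation or genome was used here. No table of several samples was used.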

Additional observations from a re-analysis of the deposited data

Results flagged for a closer look

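Of 84 groups of 4 libraries, 78 were at the named regions and 6 were totals per library. In 5 of them, all at named regions, 1 library stood apart by a gap past Dixon's 95% critical value, as a share of the group's range. Chance alone gives this in about 1 of 20 groups. At chr10:103716255-103716551 the B2_minus libraries had 37.0, 39.0, 37.1 and 36.8 scaled tags, and replicate 2 was apart by 0.896 of a range of about 2 tags. At chr4:16449974-16450357 both groups were picked out. B2_minus replicate 1, with 7.39 against 8.21 to 8.37, gave 0.836, and control replicate 4, with 33.0 against 16.6 to 18.8, gave 0.866. At chr2:10297941-10298368 B2_minus replicate 1, with 57.0 against 47.7 to 49.3, gave 0.834. At chr3:138891175-138891545 control replicate 4, with 9.90 against 12.4 to 12.9, gave 0.833. The groups were separate at each of these regions, but for all except chr10:103716255-103716551 this was part of how they were chosen.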

How the results depend on the processing

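The counts of called regions moved most with the test. Against 7761 higher and 5578 lower, holding the spread at the Poisson level gave 2807 and 1501, DESeq2 1052 and 405, testing regions with a peak in at least 4 of 8 libraries 4066 and 1944, summing the peaks of a region 4071 and 2679, and keeping only peaks of at least 15 tags 5015 higher. The higher share of calls was 58.2%, 65.2% with the Poisson level, 72.2% with DESeq2 and 67.7% with the looser filter. In the alternatives run on the same regions 0 calls changed direction. Leaving out 1 library gave 5740 to 6938 higher and 3802 to 5107 lower. Tags per listed peak differed by 3.12 with only peaks of at least 15 tags (exact permutation p = 0.0286, the smallest possible). Of the named regions, region chr14:23555871-23556388 turned, with a log2 fold change of 0.0665 with peaks merged at 100 bp. The cause was not tested for any of these. Of 39 named regions, 29 kept their call with the Poisson level, and 26 of the 36 with an adjusted p kept it with DESeq2, which gave no adjusted p to 32823 regions in all. A replicate block gave 7578 higher and 5463 lower. Deviations of same-numbered libraries correlated at -0.016 to -0.00815, and 0 of 4 numbers matched best with themselves. Libraries of different numbers gave -0.0261 to 0.0301, so these values cannot show whether same-numbered libraries were handled together. Loess scaling and an occupancy correction of counts, both added after the data were seen, gave 7689 and 5630, and 8191 and 5745.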
